A study of Mus musculus with 80 samples.

Results

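The 10 genes described here are well-known targets of the liver X receptors (LXR) and the farnesoid X receptor (FXR): Abcb11, Nr0b2, Cyp7a1, Cyp8b1, Slc10a1, Abcg5, Abcg8, Abca1, Srebf1 and Scd1. They were chosen by name out of 21911 protein-coding genes of GENCODE M21. For each of them, every RXR ChIP-Seq peak overlapping the gene, the 5 kb upstream of it or the 1 kb downstream of it was taken (its window). The 40 livers had 589904 peaks, 160551 in WT and 429353 in KO livers. Of these, the windows held 15 from WT and 86 from KO livers, the member peaks. The livers came from male C57BL6/J mice, 5 months old, that were either wildtype (WT) or PPARg knockout (KO). Per the study's methods the KO was liver-specific and made with Cre under the albumin promoter, which is active in hepatocytes. Mice of both genotypes were fed for 12 weeks. The diet was a control diet alone (Control) or supplemented with pioglitazone, an agonist of PPARg (Pio), or a high-fat diet (HFD), which some mice also received together with pioglitazone (HFD-Pio). There were 5 livers in each of these 8 groups, each liver from its own mouse per the study's methods.

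LXR, which senses oxysterols, and FXR, which senses bile acids, bind DNA as heterodimers with the retinoid X receptor (RXR), as PPARg does. LXR with RXR typically binds direct repeats of the half-site AGGTCA with a spacer of 4 bases (DR4), FXR with RXR binds inverted repeats with a spacer of 1 base (IR1), and PPARg with RXR binds direct repeats with a spacer of 1 base (DR1). In hepatocytes FXR restrains bile acid synthesis and raises bile acid export, and LXR raises sterol efflux and fatty acid synthesis. An RXR antibody precipitates all of these complexes, so a peak by itself does not name the partner of RXR.

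The letters searched on both strands were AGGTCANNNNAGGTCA for DR4, AGGTCANTGACCT for IR1 and AGGTCANAGGTCA for DR1, where N is any base. Of the windows of all 21911 protein-coding genes, 2.62% held an exact DR4, 0.575% an exact IR1 and 9.35% an exact DR1. Among the member windows, exact matches were a DR1 in an intron of Abca1 and a DR4 shared by the adjoining Abcg5 and Abcg8 windows. RefSeq promoter sequences (250 bases before to 50 bases after each start, GRCm38.p6) were matched for 8 of the 10 members, all but Cyp7a1 and Scd1. Of 32851 such promoters, 0.0822% held an IR1 with at most 1 mismatch, as that of Abcb11 did, and 21.9% held a DR4 with at most 3 mismatches, as those of Abca1, Srebf1, Nr0b2, Cyp8b1 and Slc10a1 did. The elements below are shown because they are the best IR1 match in the promoter of the FXR target Abcb11, the best DR4 matches in those of the LXR targets Abca1 and Srebf1, and the exact matches in the windows. The Srebf1 promoter shown also held an IR1 with 3 mismatches. Sequences are from the RefSeq GRCm38.p6 (mm10) genome on the minus strand. Capitals mark the element, which can read in either direction.
Abcb11 IR1, chr2:69342667-69342679, at -63 from the RefSeq start: ggactttAGGCCATTGACCTataagca
Abca1 DR4, chr4:53159947-53159962, at -67 from the RefSeq start: cagcgttTGACCGGTAGTAACCCcggcgct
Srebf1 DR4, chr11:60210638-60210653, at -182 from an internal RefSeq start: acgacagTGACCGCCAGTAACCCcagcgcg
Abca1 DR1, chr4:53099359-53099371, in an intron: tgtgtggAGGTCAGAGGTCActtttgt
Abcg5 and Abcg8 DR4, chr17:84686403-84686418, in an intron of Abcg8 and upstream of Abcg5: ccctcagAGGTCAAAAGAGGTCActgggtc

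RXR peaks were called in 0 of 40 livers within 1 kb of any of these 5 elements. The nearest peak to the Abcb11 IR1 lay 21.4 kb away, that to the Abca1 DR4 5.94 kb, that to the Srebf1 DR4 3.31 kb, that to the Abca1 DR1 3.86 kb and that to the Abcg5 and Abcg8 DR4 18.9 kb. A match of letters is a description and not a binding site, and its absence under a peak says nothing about the factor.

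Facts of the whole series bear on every count below. WT libraries kept 2.04 to 4.26 Mtags (megatags) after removal of duplicates and were called by the authors at a p cutoff of 0.001, while KO libraries kept 0.628 to 1.06 Mtags and were called at a q cutoff of 0.05. The WT lists held 579 to 33705 peaks and the KO lists 7630 to 30437. Of the KO peaks, 82.7% had their summit in an annotated exon, against 29.2% of the WT peaks, and the lists of 6 WT libraries (3 of Pio and 3 of HFD-Pio) were built with a fragment length under 60 bp. RXR stands in the titles of all ChIP samples, but for the 15 KO samples given Pio, HFD or HFD-Pio the antibody field names none. Genotype therefore cannot be told apart from depth, calling cutoff or, for those 3 groups, antibody label, and values of WT and KO livers stand side by side here. Any 2 libraries had at most 0.566% of their peaks in common as identical intervals. Peaks do not measure the level of Pparg, so its deletion was not checked. In whole liver, a site bound in few cells and one bound weakly in many cannot be told apart.

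A peak was found in at least 1 of 40 livers in the windows of 6 of the 10 members, where 81.8% of all protein-coding genes had one. Nr0b2, Cyp7a1, Cyp8b1 and Abcg8 had a peak in 0 of 40 livers, as did 18.2% of all genes. Nr0b2 (chr4:133553376-133556536, plus strand, ENSMUSG00000037583.2) encodes SHP, a corepressor induced by FXR. Cyp7a1 (chr4:6265612-6275633, minus strand, ENSMUSG00000028240.2) encodes the rate-limiting enzyme of bile acid synthesis, which SHP represses, and Cyp8b1 (chr9:121914356-121916305, minus strand, ENSMUSG00000050445.4) the sterol 12-alpha-hydroxylase, which sets the bile acid composition. In at least 3 of 5 livers of some group, a peak was called for Abcb11, Abca1, Srebf1 and Scd1, which is 4 of 10 members against 44.2% of all genes. Neither share exceeded that of all genes.

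**Figure D1:**
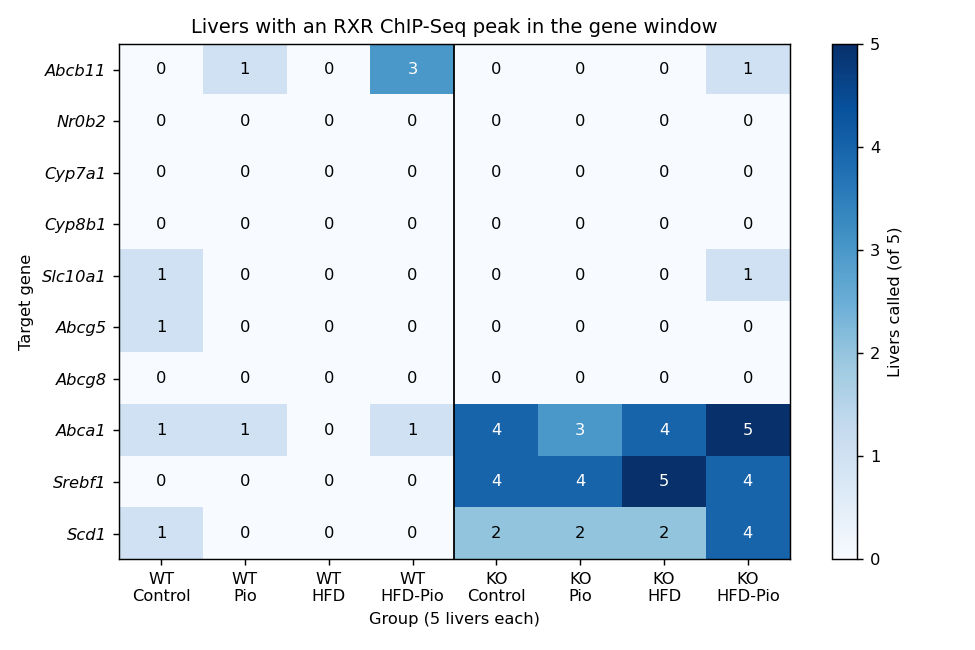
Number of livers, of 5, with at least 1 RXR ChIP-Seq peak in the window of each member gene (vertical axis) in each of the 8 groups (horizontal axis), with darker blue for more livers. Abca1, Srebf1 and Scd1 carry most calls, in KO livers, and Abcb11 reaches 3 livers in WT HFD-Pio.

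The 5 bile acid genes held 7 peaks, 5 in WT and 2 in KO livers. The 3 sterol transporter genes held 41, of which 5 were in WT and 36 in KO livers, and the 2 lipogenic genes held 53, of which 5 were in WT and 48 in KO livers. Abca1 held all but 1 of the sterol transporter peaks. In all, 15 peaks came from 8 WT libraries and 86 from 19 KO libraries. The whole series held 160551 WT and 429353 KO peaks, so an excess of KO peaks is not particular to these genes. No member peak was called in 12 WT libraries and in 1 KO library, KO Control 4, which had the shortest peak list of the KO livers.

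Among WT livers, 4 members had a peak in at least 1 liver of Control, 2 did so in Pio and 2 in HFD-Pio, and 0 in HFD. The median list held 2074 peaks in WT Control, 13844 in Pio, 11132 in HFD-Pio and 1188 in HFD. The share of all genes with a peak in at least 1 liver was not computed per group, so these counts show no difference between treatments. A peak in at least 3 of 5 livers was called for 0 members in WT Control (2.32% of all genes), 0 in WT Pio (15.2%), 0 in WT HFD (0.543%) and 1, Abcb11, in WT HFD-Pio (11.9%). Among KO livers, 2 members reached 3 livers in Control (28.1% of all genes), 2 in Pio (33.4%), 2 in HFD (29.7%) and, with Scd1 added, 3 in HFD-Pio (32.0%). Abca1 and Srebf1 did so in every KO group.

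A peak within 1 kb of the annotated start was called for 1 of 10 members, where 21.8% of all genes had one in at least 1 liver and 5.28% in at least 3 of 5 livers of a group. That peak lay in the 5′ UTR of Scd1 at chr19:44407313-44407700 in KO HFD 3, with its summit 0.431 kb inside the gene and a fold enrichment of 4.61, the ratio of ChIP tags to the local input background at the summit. It was called in 1 liver of 40.

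Abcb11 (chr2:69238282-69342616, minus strand, ENSMUSG00000027048.15) encodes the bile salt export pump, the FXR target that moves bile acids into the canaliculus. It was called in WT Pio 3, in WT HFD-Pio 1, 2 and 4 and in KO HFD-Pio 1, and in 0 of 5 livers of the other 5 groups. The fold enrichment was 3.64 in WT Pio 3, 2.81 in WT HFD-Pio 1, 3.10 in WT HFD-Pio 2, 2.78 in WT HFD-Pio 4 and 3.72 in KO HFD-Pio 1. All 5 peaks lay in introns, 5 different sites of which no 2 overlapped. Their whole intervals are shown, on the strand of the gene, because the gene has the only member call that reached 3 WT livers of a group, and they share no site. Capitals in the last mark an AG repeat.
WT Pio 3, chr2:69279871-69279915: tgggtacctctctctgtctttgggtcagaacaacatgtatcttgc
WT HFD-Pio 1, chr2:69265795-69265841: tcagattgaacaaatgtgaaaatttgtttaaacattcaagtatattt
WT HFD-Pio 2, chr2:69305585-69305753: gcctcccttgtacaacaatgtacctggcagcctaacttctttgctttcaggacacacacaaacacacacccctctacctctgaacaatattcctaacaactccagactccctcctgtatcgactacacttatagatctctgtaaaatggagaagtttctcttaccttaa
WT HFD-Pio 4, chr2:69241185-69241230: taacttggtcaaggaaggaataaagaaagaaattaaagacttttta
KO HFD-Pio 1, chr2:69249559-69249697: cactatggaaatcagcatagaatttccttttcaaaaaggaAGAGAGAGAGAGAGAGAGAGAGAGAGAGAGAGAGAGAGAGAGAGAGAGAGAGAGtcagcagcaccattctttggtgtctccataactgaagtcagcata

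Of the 4 WT peaks of Abcb11, 3 were 45 to 47 bp wide and came from libraries with the short fragment length, and their summits held 2 or 3 tags. Only the peak of WT Pio 3 had a q of 0.05 or less. At that cutoff Abcb11 was called in 0 of 5 livers of WT HFD-Pio. Within these 5 intervals the closest match to DR1, DR4 or IR1 had 4 mismatches of 12 fixed letters. Between WT HFD-Pio and WT HFD, Abcb11 was called in 3 of 5 against 0 of 5 livers (two-sided Fisher's exact test, p = 0.167, adjusted p = 0.811 over 10335 genes). Of those genes, 19.8% showed the same or a larger gain, that is at least 3 livers against 0, and 0% passed an adjusted p of 0.05. With the diets pooled, 4 of 10 Pio-treated and 0 of 10 untreated WT livers had an Abcb11 peak (exact p = 0.0867, adjusted p = 0.422), in a comparison in which 7.48% of all genes passed. The difference in livers did not pass either test.

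Slc10a1 (chr12:80953183-80968705, minus strand, ENSMUSG00000021135.8) encodes NTCP, which takes bile acids up from portal blood and is repressed through FXR and SHP. It was called in 2 of 40 livers. In WT Control 1 the peak lay upstream at chr12:80970570-80970752, with its summit at -1.96 kb from the gene start, a fold enrichment of 3.82 and 4 tags. In KO HFD-Pio 1 it lay in an intron at chr12:80960657-80960861, with a fold enrichment of 4.69 and 4 tags. The upstream interval is shown because it is the only member peak between a gene start and 5 kb upstream that lies in no exon of another gene. It is given on the strand of the gene, and no letters are marked because its closest match to a repeat searched had 4 mismatches.
WT Control 1, chr12:80970570-80970752: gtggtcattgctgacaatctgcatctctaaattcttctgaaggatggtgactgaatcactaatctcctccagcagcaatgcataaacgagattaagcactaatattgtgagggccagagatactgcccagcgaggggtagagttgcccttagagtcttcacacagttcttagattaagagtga

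Widening the window to 10 kb upstream and 5 kb downstream brought in 72 peaks in 28 livers downstream of Slc10a1, all in exons of Srsf5, which encodes a splicing factor. These were called in 20 of 20 KO livers, 4 of 5 of WT Pio and 4 of 5 of WT HFD-Pio, with fold enrichments of 2.73 to 13.1. They are peaks of the neighbouring gene and entered no count above.

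Abcg5 (chr17:84658234-84683011, minus strand, ENSMUSG00000040505.13) and Abcg8 (chr17:84676302-84700333, plus strand, ENSMUSG00000024254.15) encode both subunits of the transporter that secretes sterols into bile, and are LXR targets. A peak was called in 1 liver of 40, in an intron of Abcg5 in WT Control 4. Its summit held 11 tags, the most of any member peak, but its fold enrichment of 2.71 was the lowest of any. The interval is a run of CA repeats, of which the longest unbroken were 23 bp, in capitals, and is shown on the strand of Abcg5 because it is repeat over nearly all of its length.
WT Control 4, chr17:84667236-84667519: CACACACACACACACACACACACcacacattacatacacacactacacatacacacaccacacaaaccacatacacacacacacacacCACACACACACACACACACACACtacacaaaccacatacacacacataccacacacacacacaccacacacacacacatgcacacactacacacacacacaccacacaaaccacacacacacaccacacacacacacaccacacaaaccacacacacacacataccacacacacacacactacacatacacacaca
In that library 50.7% of all peaks held a dinucleotide run of at least 20 bp within their own interval. This measure depends on peak width, which was not held equal between groups, and WT Pio and WT HFD-Pio include the short-fragment libraries. The share was 32.4% in WT Control as a group, 37.2% in WT HFD, 2.87% in WT Pio, 4.76% in WT HFD-Pio and 1.12% in KO livers. Among the member peaks it was 2.97% (3 peaks), against 3.41% of all peaks.

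Abca1 (chr4:53030787-53159895, minus strand, ENSMUSG00000015243.4) encodes the transporter that loads cholesterol onto apolipoprotein A-I and is a classic LXR target. Its 40 peaks were called in 19 livers: 1 of 5 in WT Control, WT Pio and WT HFD-Pio, 0 of 5 in WT HFD, 4 of 5 in KO Control, 3 of 5 in KO Pio, 4 of 5 in KO HFD and 5 of 5 in KO HFD-Pio. The highest fold enrichment per liver was 3.55 in WT Control 5, 3.64 in WT Pio 3 and 3.66 in WT HFD-Pio 5. In KO Control it was 4.33, 5.66, 3.50 and 3.78 in livers 1, 2, 3 and 5, and in KO Pio 4.70, 4.68 and 3.71 in livers 1, 3 and 4. In KO HFD it was 2.84, 3.84, 3.75 and 3.74 in livers 1 to 4, and in KO HFD-Pio 3.75, 3.77, 3.81, 4.75 and 4.75 in livers 1 to 5. The ranges of the KO groups overlapped, and the 3 WT livers fell within the span of the KO livers.

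The 40 Abca1 peaks lay in 21 sites: 22 peaks had their summit in the 3′ UTR, 9 in coding exons and 9 in introns. Exons make up 7.67% of the window and held 77.5% of these summits. The site called in most livers was chr4:53032922-53033552 in the 3′ UTR, with 8 livers, all KO. In KO HFD-Pio it was called in 3 of 5 livers, at 2.82, 3.81 and 4.75, a mean of 3.79 ± 0.966 (SD, n = 3 called livers). The adjoining site chr4:53032296-53032885, also in the 3′ UTR, was called in 6 KO livers. It reached 3 of 5 in KO Control, at 4.33, 5.66 and 3.78, a mean of 4.59 ± 0.967 (SD, n = 3 called livers), and 0 of 5 in KO HFD-Pio. Means over called livers leave out those in which the site missed the cutoff.

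**Figure D2:**
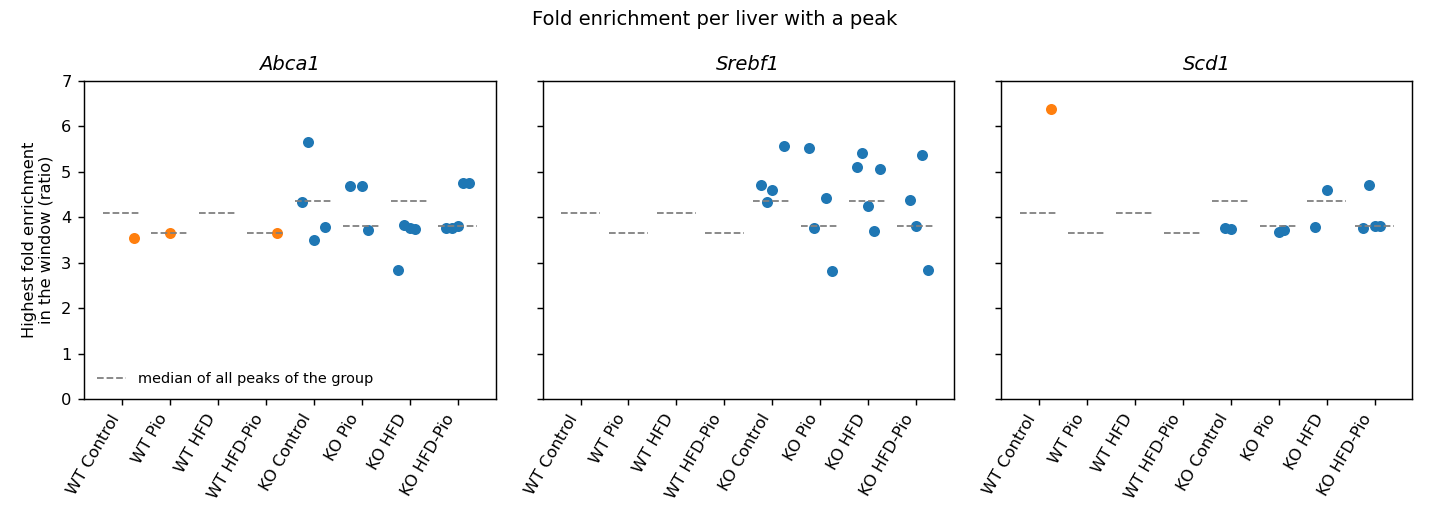
Highest fold enrichment (ratio of ChIP to local input, vertical axis) of a peak in each liver's window of Abca1, Srebf1 and Scd1, with 1 point per liver called, by group (horizontal axis). All points lie between 2.81 and 5.66 except Scd1 in WT Control 5 at 6.38, and dashed lines give the median of all peaks of the group.

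Srebf1 (chr11:60199089-60222581, minus strand, ENSMUSG00000020538.15) encodes SREBP-1, the transcription factor that LXR induces to drive fatty acid synthesis. It was called in 0 of 20 WT livers and in 17 of 20 KO livers. It was called in 5 of 5 livers of KO HFD and in 4 of 5 of each other KO group. The highest fold enrichment per liver was 4.72, 4.34, 4.60 and 5.56 in KO Control 1, 2, 3 and 5, and 5.52, 3.76, 4.42 and 2.81 in KO Pio 1, 2, 4 and 5. It was 5.11, 5.42, 4.25, 3.70 and 5.06 in KO HFD 1 to 5, and 4.38, 3.81, 5.38 and 2.83 in KO HFD-Pio 2 to 5. The 4 KO groups overlapped throughout.

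Of the 32 Srebf1 peaks, 24 lay outside the gene: 13 in the 3′ UTR of Tom1l2 upstream and 11 in the 3′ UTR of Rai1 downstream. Within the gene, 7 were in coding exons and 1 in an intron. Exons of any gene make up 25.7% of the window and held 96.9% of the summits. With the gene body alone, Srebf1 was called in 2 of 5 livers in each KO group. The site in Tom1l2, chr11:60227266-60228015, which runs past the edge of the window, was called in 11 KO livers, with a mean fold enrichment of 4.50 ± 0.725 (SD, n = 4 called livers) in KO HFD and 3.94 ± 0.226 (SD, n = 3) in KO HFD-Pio. These counts and means use the whole site. KO Pio 4 and KO HFD-Pio 5 had a peak of it only outside the window. KO HFD 1 entered at 4.64 from a peak outside, where its peak inside read 3.54. The site in Rai1, chr11:60198454-60198937, was called in 9 KO livers, with a mean of 4.02 ± 0.925 (SD, n = 3 called livers) in KO HFD. Both sites are as much part of the neighbouring genes as of the Srebf1 window.

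Scd1 (chr19:44394455-44407879, minus strand, ENSMUSG00000037071.3) encodes stearoyl-CoA desaturase, which makes monounsaturated fatty acids and is induced by LXR directly and through SREBP-1. It was called in 1 of 20 WT livers, WT Control 5, and in 10 of 20 KO livers. The highest fold enrichment per liver was 3.77 and 3.75 in KO Control 2 and 3, 3.67 and 3.71 in KO Pio 3 and 4, and 3.78 and 4.61 in KO HFD 1 and 3. It was 3.75, 4.72, 3.81 and 3.80 in KO HFD-Pio 1 to 4. WT Control 5 had 5 separate peaks in the gene, at 4.96, 6.38, 3.55, 2.84 and 4.25, and the highest of them was the strongest of all member peaks. That peak, at chr19:44395592-44396038 in the 3′ UTR with 8 tags, stood at percentile 98.6 of its library. The same library had a peak at 5 of 8 hepatocyte markers, where every other WT library had 0 to 2. The part of this in the Scd1 values was not tested.

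The 21 Scd1 peaks lay in the 3′ UTR (14), in coding exons (4), in the 5′ UTR (1) and in introns (2), so that exons, 25.2% of the window, held 90.5% of the summits. Scd1 has a close paralogue, Scd2, and reads from near-identical stretches could be placed on either. A peak was called at Scd2 in 20 of 20 KO and 0 of 20 WT livers.

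**Figure D3:**
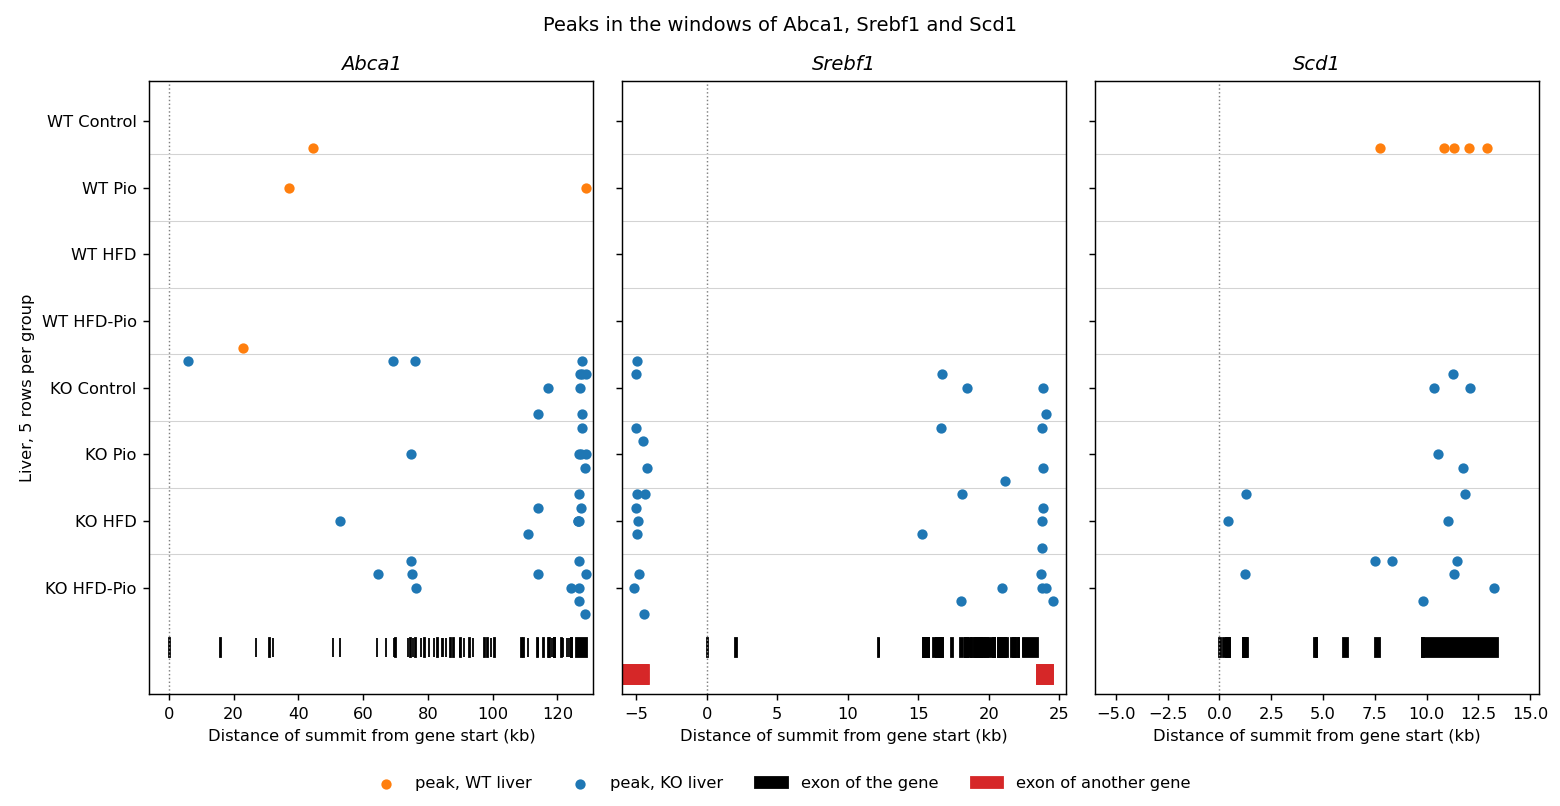
Positions of the Abca1, Srebf1 and Scd1 peaks (distance of the summit from the gene start in kb, horizontal axis) in the 5 livers of each group (vertical axis), with exons of the gene in black and of other genes in red below. Abca1 and Scd1 peaks gather in the 3′ UTR, and Srebf1 peaks gather in exons of Tom1l2 and Rai1 outside both ends of the gene.

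**Figure D4:**
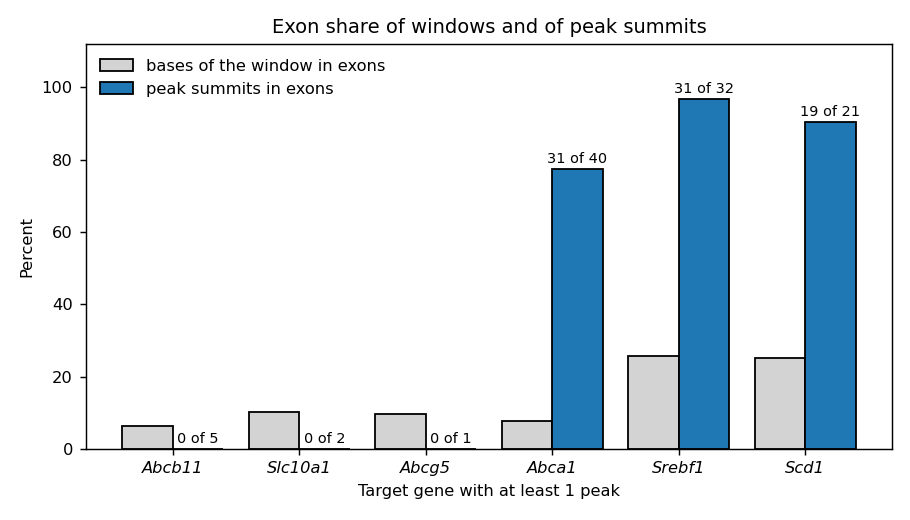
Share of each gene window that is annotated exon of any gene, beside the share of its peak summits that lie in exons (both in percent), for the members with a peak. For Abca1, Srebf1 and Scd1 the share of summits is 77.5 to 96.9% against 7.67 to 25.7% of the window, and for Abcb11, Slc10a1 and Abcg5 it is 0%.

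Over both genotypes, 81 member summits (80.2%) lay in an exon. In KO livers the share was 88.4%, against 82.7% of all KO peaks, and in WT livers it was 33.3%, against 29.2% of all WT peaks. The part of exonic sequence in these calls was not tested.

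The peaks were weak. Fold enrichment ran from 2.71 to 6.38 with a median of 3.75, beside 3.88 for all KO and 3.66 for all WT peaks. The summits held 2 to 11 tags, and 79 of the 86 KO peaks held 2 to 4. Because fold enrichment is a ratio of so few tags, it came in steps: in KO livers 16 peaks with 2 tags read 2.75 to 2.88, 45 with 3 tags read 3.30 to 3.84, 18 with 4 tags read 4.20 to 4.75 and 6 with 5 tags read 5.06 to 5.66. The values given above for Abca1, Srebf1 and Scd1 in KO livers therefore rest on 2 to 6 tags at the summit. Of all member peaks, 74 were below the median of their own library, 8 reached a fold enrichment of 5, and 6 had a −log10 q of at least 5.

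When up to 2 mismatches were allowed in the 100 bp on either side of the summit, 3 member peaks (2.97%) held a DR4, 2 (1.98%) an IR1 and 0 a DR1. Among all peaks 1.97% held a DR4, 1.11% an IR1 and 2.47% a DR1. Any of the repeats was found at 4.95% of member and 5.29% of all peaks. The 5 member peaks with a match all belonged to Srebf1, in its coding exons or in Tom1l2. A match with at most 1 mismatch lay under no member peak. Such matches lay in 4 of the windows: a DR1 in Abca1 and Abcb11, a DR4 in Abca1, Abcg5 and Abcg8, and an IR1 in Abcb11. Of the windows of all 21911 genes, 46.4% held such a DR1, 30.1% such a DR4 and 13.6% such an IR1.

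Pio and diet were compared within each genotype. In the 8 comparisons of 5 against 5 livers, by two-sided Fisher's exact tests with Benjamini-Hochberg adjustment over all genes with a peak, 0 members passed and 0 had an unadjusted p under 0.05. The share of all genes called was 0% in each of them, with 11 to 1412 genes at an unadjusted p under 0.05. An exact McNemar test over replicate numbers called 0 as well, but with 5 pairs its smallest p is 0.0625. Scd1 in KO HFD-Pio against KO HFD, 4 of 5 against 2 of 5 livers, gave an exact p of 0.524. With the diets pooled, 0 of 5 members tested passed in KO livers, where 0% of all genes did. With 5 livers a group the smallest p that this test can give was 0.00794, from 5 against 0 livers.

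Between genotypes, Srebf1 was the member that passed. In HFD it was called in 0 of 5 WT and 5 of 5 KO livers (two-sided Fisher's exact test, p = 0.00794, adjusted p = 0.0323), where 24.6% of the 11312 genes tested passed and 51.4% were called in 0 WT and at least 3 KO livers. In the other 3 treatments Srebf1 was called in 0 of 5 WT and 4 of 5 KO livers, with an exact p of 0.0476 and adjusted p of 0.161 in Control, 0.211 in Pio and 0.228 in HFD-Pio. Without KO Control 4, which had no member peak, it passed in Control (exact test, adjusted p = 0.0348), as did 2906 of the 12752 genes tested. In these 3 treatments 0% of genes passed with all livers, and 33.8%, 17% and 17.8% were called in 0 WT and at least 3 KO livers. Over alternatives in the calling threshold, the window and the livers used, the adjusted p for Srebf1 in HFD ranged from 0.0217 to 1, and 13 of 19 kept the call. Those were every run leaving out 1 liver, q of 0.05 or less in every list, summits in the window and the wider window. The call was lost with a −log10 q or a fold enrichment of at least 5 and with the replicate block. It was also lost with lists of equal length, where Srebf1 was called in 0 livers. With the gene body alone the adjusted p was 0.655, and with summits outside exons it was 1, so the call was lost there too. Of all genes tested, 0 of 1675 passed with equal lists, 0 of 6330 with summits outside exons and 0 of 11312 with the replicate block. With the gene body alone 2320 of 10122 passed. The counts were 1441 of 5343 with the −log10 q limit and 1509 of 5545 with the fold enrichment limit. In the same HFD livers, of 5 neuron markers 0 had a peak in each WT liver and 4 or 5 in each KO liver, and of 8 hepatocyte markers 0 or 1 had a peak in each WT and 1 or 2 in each KO liver. The part of these differences between the lists in the Srebf1 result was not tested.

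Abca1 gave the same unadjusted p of 0.0476 in HFD, with 0 of 5 WT and 4 of 5 KO livers (exact test, adjusted p = 0.115), and in HFD-Pio, with 1 of 5 and 5 of 5 (adjusted p = 0.228). An unadjusted p under 0.05 was reached by 4672 of the 11312 genes tested in HFD and 3034 of 14532 in HFD-Pio. Without KO HFD 5, the KO HFD liver with no Abca1 peak and with the shortest list of its group, Abca1 passed in HFD (exact test, adjusted p = 0.0217). So did 4135 of the 11293 genes tested there. With q of 0.05 or less required in WT lists too, Abca1 passed in HFD-Pio (exact test, adjusted p = 0.0460), as did 2175 of 12604 genes. Scd1 had an unadjusted p of 0.0476 in HFD-Pio, with 0 of 5 WT and 4 of 5 KO livers, and did not pass (exact test, adjusted p = 0.228). With all livers and the authors' thresholds, neither gene passed after adjustment. No bile acid gene had an unadjusted p under 0.05 in any of the 14 comparisons.

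Strength at a site could be compared by limma only where every liver of both groups had a peak, and 0 member sites met this in any Pio comparison. Of all sites, 9 met it in WT Pio against WT Control, 6 in WT HFD-Pio against WT HFD, 2508 in KO Pio against KO Control and 2775 in KO HFD-Pio against KO HFD. At an adjusted p below 0.05 and at least 2-fold, limma called 0%, 0%, 0.478% and 0% of them.

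Other genes of the same pathways give the setting. Of 17 other LXR pathway genes, 17 had a peak in at least 1 liver, as did 81.8% of all genes, and 10 in at least 3 of 5 livers of a group, as did 44.2%. Acaca, acetyl-CoA carboxylase, was called in 27 livers, Apoe, the apolipoprotein, in 22, Fasn, fatty acid synthase, in 20, Scd2 in 20 and Elovl5, a fatty acid elongase, in 17. Fasn, Scd2 and Elovl5 were called in 0 of 20 WT livers, as Srebf1 was, while 11 of the 27 livers with an Acaca peak were WT. Between WT HFD and KO HFD, 3 of the 12 LXR genes tested passed, all lower in WT: Apoe, Fasn and Scd2. Of all genes tested, 24.6% passed in that comparison, so the count was near that of all genes.

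Of 22 other FXR and bile acid genes, 17 had a peak in at least 1 liver (81.8% of all genes) and 5 in at least 3 of 5 of a group (44.2%). Slc51a, a subunit of the basolateral bile acid exporter, was called in 14 livers, Abcb4, the canalicular phospholipid transporter, in 11, Cyp27a1, the sterol 27-hydroxylase, in 11, Cyp7b1, the oxysterol 7-alpha-hydroxylase, in 8, and Nr5a2, which encodes the receptor LRH-1, in 6. All 8 livers with a Cyp7b1 peak were WT, 4 of them in WT Pio. Of the 6 FXR genes tested between WT HFD and KO HFD, 0 passed the exact test and 0 had an unadjusted p under 0.05. Of the RXR genes themselves, Rxrb was called in 20 KO and 0 WT livers and was the 1 of 2 tested that passed in that comparison, Rxrg was called in 7 livers, and Rxra, the main form in liver, in 3. In the other 13 comparisons 0 genes of the 3 lists passed the exact test, and at most 5 LXR, 1 FXR and 1 RXR gene had an unadjusted p under 0.05 in a comparison. The 5 LXR genes were of 17 tested in HFD-Pio between genotypes, where 3034 of all 14532 genes had one. In Control 3778 of 12785 genes did and in Pio 3338 of 14757. Among KO livers, 1 FXR gene did so in Pio against Control, as did 117 of 12237 genes, and 1 with the diets pooled, as did 129 of 13874.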

How the data were processed

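RXR ChIP-Seq was measured in 40 livers, 5 in each of 8 groups taken from the sample labels, each with an input library. Per the study's methods and the submitters' processing notes, reads were aligned to mm10 with Novoalign (version not given in the sources used here). The authors called peaks for each library against its input with MACS2 2.1.1.20160309, keeping 1 tag per position. Per the file headers, the cutoff was p 0.001 in WT and q 0.05 in KO libraries. The deposited lists give, for each peak, the fold enrichment (the ratio of ChIP to local input at the summit), the pileup (the signal at the summit, in tags) and the −log10 p and −log10 q values. A second deposited copy of each list held the same peaks and was not used. Lists hold no reads per site, so the study's test on read counts was not repeated, and counting intervals and the depth of single sites are not given.

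Here, summits of 1 peak were merged, and peaks overlapping by at least 1 bp across libraries formed a site. A gene was called in a liver with at least 1 peak overlapping its window on GENCODE M21. The numbers of livers called were compared by two-sided Fisher's exact tests on all protein-coding genes with a peak in the livers compared, adjusted by Benjamini-Hochberg, and sites called in all 10 livers of a comparison by limma on log2 fold enrichment after each library's median was subtracted. Both were checked on simulated data. Alternatives were other thresholds, list lengths, windows, exclusion of exonic summits or of short-fragment libraries, a replicate block and leaving out each liver. All 10 members were named, with sites called in at least 3 of 5 livers of a group, and listed pathway genes called in at least 3 of 5 livers, at most 5 per list. For members reaching that level, at most 3 genes with the most similar libraries were named. The members and lists were chosen with earlier results of these data known. R 4.3.3 with limma 3.58.1 and Python 3.11.15 with matplotlib 3.10.9, scipy 1.17.1, pandas 2.3.3 and numpy 2.4.6 were used.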

Additional observations from a re-analysis of the deposited data

Results flagged for a closer look

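In groups of 4 or 5 livers, 24 sets of values for the members were screened for 1 liver far from the rest (Dixon's test). That screen marks about 1 in 20 sets of normally distributed values by chance. These sets were small counts with ties or fold enrichments in steps of tags, so that rate does not hold for them. In WT Control, liver 5 had 6 peaks in the 10 windows and the next liver had 1. In WT Pio, liver 3 had 3 peaks from 2 members, and the other 4 livers had 0. In WT HFD-Pio, liver 3 had 0 peaks and 0 members called, and the other 4 livers had 1 each. The highest Abca1 fold enrichment was 2.84 in KO HFD 1, below the next value of 3.74. The highest Scd1 fold enrichment was 4.72 in KO HFD-Pio 2, above the next value of 3.81.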

How the results depend on the processing

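The count of members passing was unchanged in 282 of 292 recomputations. Most of these started from 0 members in comparisons where 0% of all genes passed, so an unchanged count there does not measure stability. Between WT HFD and KO HFD, where 1 member (Srebf1) passed, it was 0 with a −log10 q of at least 5, a fold enrichment of at least 5, lists of equal length (579 peaks), the gene body alone or summits outside exons, and 2 (Srebf1 and Slc10a1) with the window of 10 kb and 5 kb. Leaving out 1 liver gave 1 to 2 there (Srebf1 and Abca1 without KO HFD 5) and 0 to 1 between WT Control and KO Control (Srebf1 without KO Control 4). Requiring q of 0.05 or less in WT lists too gave 1 (Abca1) between WT HFD-Pio and KO HFD-Pio. Of all genes tested, 3377 of 12636 passed with the wider window and 4135 of 11293 without KO HFD 5. The counts were 2906 of 12752 without KO Control 4 and 2175 of 12604 with q of 0.05 or less. Between WT HFD and KO HFD, 0 of 1675 genes passed with lists of equal length and 0 of 6330 with summits outside exons. The loss of Srebf1 there is therefore shared by all genes.

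The replicate numbers did not pair treated with untreated KO livers: over 2508 and 2775 sites, correlations of same-numbered livers were -0.0438 to 0.0233 and -0.0357 to 0.0176. WT livers had 9 and 6 sites, with correlations of -0.748 to 0.787 and -0.942 to 0.671, too few sites to tell. Pairing across diets or genotypes was not examined. With the replicate number as a block, 0 members passed in any comparison by the exact McNemar test, whose smallest p with 5 pairs is 0.0625, and 0 member sites by limma.

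Of 2920 differences in the share of livers called, 11 changed sign. With the wider window, which takes in Srsf5, those of Slc10a1 became 0.6 for WT Pio against WT Control, -0.8 for WT Control against KO Control and 0.7 for pooled WT livers (exact test, adjusted p = 0.0598). With q at most 0.05, Abcb11 became -0.2 for WT HFD-Pio against WT Pio and against KO HFD-Pio. Scd1 in WT Control against KO Control became 0.2 with a fold enrichment of at least 5, equal lists or summits outside exons. Abca1 became 0.2 for WT Pio against KO Pio with summits outside exons and -0.1 for pooled WT livers without short-fragment libraries, and Srebf1 0.1 for pooled KO livers with a −log10 q of at least 5. The means at the 5 sites given moved by less than their SD when the mean of a liver's peaks replaced the strongest. The causes were not tested, and 2 to 4 tags at most summits limit what strength can show.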

Other observations

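Some protein-coding genes were called in nearly the same livers as a member. The measure was the Jaccard index (livers shared, divided by livers called for either gene) over 40 livers. These differed in depth and list length, for which the index was not corrected. For Abcb11 the index was 0.8 with Armh4 and 0.667 with A630089N07Rik and Ctss. For Abca1 it was 0.864 with Pde4dip and with Smarcc1 and 0.857 with Adam23. For Srebf1 it was 0.944 with 1500011B03Rik and with Nsun5, and 0.895 with 2410002F23Rik, 1 of 63 genes at that value. For Scd1 it was 0.75 with Btbd6, 0.727 with Dnmt3c and 0.692 with Ints6l.

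Peaks at cell type markers differed between lists in the same libraries. Of 8 hepatocyte markers, 0 to 5 had a peak per WT liver and 1 to 2 per KO liver. Ttr, transthyretin, was called in 20 KO and 2 WT livers, Alb, albumin, in 3 WT and 0 KO livers, and Fgb, a fibrinogen chain, in 0 of 40. Of 5 neuron markers, 0 to 4 had a peak per WT and 4 to 5 per KO liver, and of 4 smooth muscle markers 0 to 3 and 2 to 4. The range per WT liver was 0 to 3 of 5 for intestinal epithelium, 0 to 3 of 4 for Kupffer cells and macrophages, 0 to 3 of 4 for cholangiocytes, 0 to 1 of 4 for adipocytes and 0 to 1 of 3 for pancreas. Per KO liver these were 0 to 1, 0 to 2, 0 to 3, 0 to 2 and 0. A peak at a marker is not a level of its expression.

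Widening the windows beyond the members' own brought 2 peaks upstream of Nr0b2, in exons of Nudc, with a fold enrichment of 4.86 in a KO Pio liver and 5.42 in a KO HFD liver. It brought 1 peak downstream of Cyp8b1 in a WT HFD-Pio liver, at 3.52. Cyp7a1 had 0 peaks in 40 livers in the wider window too.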
